A study of Mus musculus with 5 samples.

Results

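Ribosome biogenesis and RNA polymerase I genes were examined as a set of 48 genes, chosen by symbol, among the 14454 gene symbols with values. Of these 48, 47 had values, and Noc2l was not analysed here. Messenger RNA had been sequenced from 5 derivatives of the mouse fibroblast line NIH/3T3, which came from embryos and grows without limit. The first group is 4 lines, numbered 3, 6, 15 and 18, with an integrated gene for EGFP joined to human histone H2A that carries T120D, a change of a threonine near the C-terminal end to aspartate. The other is 1 line in which the joined histone is wild type (wt). All 5 lines thus carried the EGFP fusion, and all were grown in DMEM with serum and gentamicin. The labels do not say whether a line is a clone, a pool or a separate culture, nor which promoter drives the fusion, so n = 4 counts numbered lines that may not be independent. The question here was whether the genes that build ribosomes differ between the T120D lines and the wt line. RPKM, read numbers divided by transcript length and sequencing depth, is the unit of level throughout.

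Ribosomes are assembled in the nucleolus. RNA polymerase I transcribes a long precursor rRNA there, small nucleolar ribonucleoproteins modify and guide the cleavage of that precursor, and separate sets of assembly factors build the small and the large ribosomal subunit on it. Box C/D particles carry a methyltransferase that acts on the ribose, and box H/ACA particles carry a pseudouridine synthase. Growing fibroblasts spend much of their transcription on this pathway, and many of its genes are known targets of the transcription factor MYC.

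Stretches of promoter are shown because the members share a cellular function and differed between groups to unequal degrees. Sequences are RefSeq windows of GRCm38.p6, read along the strand of the gene, and 42 of the 47 members had one. The windows reach from 250 bases before to 50 bases after an annotated start. First, the 120 bases before the start are given for the 4 members with the largest differences among those called below that had a single window. They are Nhp2 (chr11:51619653-51619772, plus strand), Bysl (chr17:47611493-47611612, minus strand), Nop56 (chr2:130274292-130274411, plus strand) and Nop2 (chr6:125131763-125131882, plus strand). Positions are counted from the start, before it as negative numbers. Capitals mark any match to CACGTG (the E-box bound by MYC and related factors), to CGGAAG (the core bound by ETS factors) or to GGGCGG (a GC box), on either strand.
Nhp2: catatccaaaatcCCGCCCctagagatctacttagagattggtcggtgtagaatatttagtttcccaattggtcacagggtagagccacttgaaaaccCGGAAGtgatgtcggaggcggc
Bysl: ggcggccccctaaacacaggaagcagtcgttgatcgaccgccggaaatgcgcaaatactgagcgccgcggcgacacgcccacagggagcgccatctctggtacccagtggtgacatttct
Nop56: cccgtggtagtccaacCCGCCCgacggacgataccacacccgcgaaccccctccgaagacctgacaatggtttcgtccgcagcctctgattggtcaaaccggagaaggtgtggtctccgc
Nop2: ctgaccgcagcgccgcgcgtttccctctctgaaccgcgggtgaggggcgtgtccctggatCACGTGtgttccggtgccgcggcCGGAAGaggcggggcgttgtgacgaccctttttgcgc

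The E-box was found in the windows of 7 of 42 members (16.7%), against 8.09% of 27025 genes with a window and 12.3% of the 7588 tested genes with one. Besides Nop2, shown above, they were Imp4 (chr1:34439696-34439725, plus strand), Wdr43 (chr17:71616220-71616249, plus strand), Mybbp1a (chr11:72441347-72441376, plus strand), Tsr1 (chr11:74898092-74898121, plus strand), Pes1 (chr11:3963965-3963994, plus strand) and Utp20 (chr10:88826765-88826794, minus strand). For these, 30 bases around the E-box are given with the E-box in capitals. Its first base lies at -121 in Imp4, 17 in Wdr43, 40 in Mybbp1a, 24 in Tsr1, 2 in Pes1, 37 in Utp20 and -60 in Nop2.
Imp4: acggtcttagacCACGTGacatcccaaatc
Wdr43: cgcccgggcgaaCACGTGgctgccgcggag
Mybbp1a: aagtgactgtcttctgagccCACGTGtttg
Tsr1: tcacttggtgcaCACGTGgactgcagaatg
Pes1: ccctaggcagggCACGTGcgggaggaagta
Utp20: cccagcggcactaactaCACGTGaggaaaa
The ETS core was present for 24 members (57.1%), against 38.6% of tested genes with a window. The GC box was present for 32 (76.2%), against 72.9%. Among the 12 members with a window that were called higher below, 3 had the E-box, 7 the ETS core and 10 the GC box (25%, 58.3% and 83.3%). Among the 30 that were not called, 4, 17 and 22 had them (13.3%, 56.7% and 73.3%). The ETS core and the GC box can share 3 letters, and each then counted. A match describes letters, not binding.

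Estimated depth was 2500000 to 2680000 reads in the T120D lines and 2700000 in the wt line, so 1 RPKM of a transcript of 2000 bases corresponded to 5 to 5.4 reads. No 2 lines had identical values. Line 6 was set apart from lines 3, 15 and 18, which may not be independent of one another. The chi-square per gene between lines, over 2891 genes, was computed on reads estimated from RPKM, transcript length and estimated depth. It was 1.48 to 1.68 among lines 3, 15 and 18 and 2.08 to 2.25 between these and line 6. For T120D lines against wt it was 10.61 to 12.54. These are not true counts, so the value of about 1 from counting noise alone is only a rough guide. All 10 fibroblast markers were expressed. Of these, 1 was called higher in T120D, Thy1, at 48.5 to 61.5 RPKM in T120D and 20.3 RPKM in wt. Another 7 were called lower, Pdgfra, Col3a1 and Fn1 among them, where 7.65% of all tested genes were called higher and 5.45% lower. The 10 summed to 2513 to 2908 RPKM in T120D and 3393 RPKM in wt. Of the markers of other cell types, epithelial, endothelial, skeletal muscle and macrophage lists had 3 genes with values each and the neural list 6. The epithelial, endothelial and skeletal muscle lists summed to at most 1.23 RPKM in any line, and Pecam1, Tek and Sox10 were listed at 0 in all. The macrophage list summed to 2.88 to 6.55 RPKM in T120D and 3.17 RPKM in wt, and the neural list to 3.02 to 4.69 RPKM in T120D and 4.11 RPKM in wt, with 0 called of the 1 macrophage and 2 neural genes tested. Cd14 was at 2.51 to 5.32 RPKM in T120D and 1.71 RPKM in wt, and Gap43 at 0.608 to 2.04 RPKM in T120D and 0.282 RPKM in wt. Cd68 was at 0 to 1.13 RPKM in T120D and 1.46 RPKM in wt. Map2, of the neural list, also ran the other way, at 0.835 to 3.26 RPKM in T120D and 3.83 RPKM in wt. The part of these differences in the results below was not tested. Pools of cells were sequenced, so fewer expressing cells and less RNA per cell cannot be told apart.

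Many ribosome biogenesis genes had higher levels in the T120D lines, by unequal amounts. All 47 members with values averaged 1 RPKM or more across the 5 lines, which was the condition for testing, and 13 of them were called higher in T120D and 0 lower (limma on log2(RPKM + 1), Benjamini-Hochberg adjusted p under 0.05 over 10052 tested genes). Called here means that threshold. Over all tested genes, 7.65% were called higher and 5.45% lower. At an unadjusted p under 0.05, 25 members were higher and 0 lower, against 15.2% of all tested genes higher. The median log2 difference of the members was 0.45, against -0.02 over all tested genes. The 13 were Nhp2, Bysl, Nop56, Nop2, Ddx21, Rrp9, Wdr43, Nolc1, Ppan, Rrp1b, Rrs1, Polr1b and Mybbp1a. A further 10 members had an adjusted p from 0.05 to under 0.1. The members were chosen with earlier results of these data known, so their count was not tested against other genes. With 1 wt line, the spread behind each p comes from the T120D lines, and an exact permutation cannot give a one-sided p below 0.2. Without the filter on low values 7 members were called higher, and by limma without a trend 8.

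For 37 of the 47 members wt was below every T120D line, and for 9 it was within their range, where 31.1% of all tested genes had wt below all lines. It lay above all 4 for 1 member, Polr1c, where 32.3% of all tested genes did. The ratio of the mean T120D level to the wt level was at least 2 for 4 members and 1.5 to 2 for 15. It was 1.2 to 1.5 for 14, 1 to 1.2 for 11 and under 1 for 3. In the same order, the shares of all tested genes were 4.49%, 8.10%, 16.0%, 20.7% and 50.5%. Polr1e, among those at 2 or more, was at 0.872 RPKM in wt and was not called. Summed over the members, the level was 1021, 1073, 1015 and 938.1 RPKM in T120D lines 3, 6, 15 and 18 and 775.3 RPKM in wt. The summed T120D mean was 1012 ± 55.5 RPKM (SD, n = 4), 1.31 times the wt sum. The median member had 11.95 RPKM in T120D and 9.78 RPKM in wt.

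**Figure D1:**
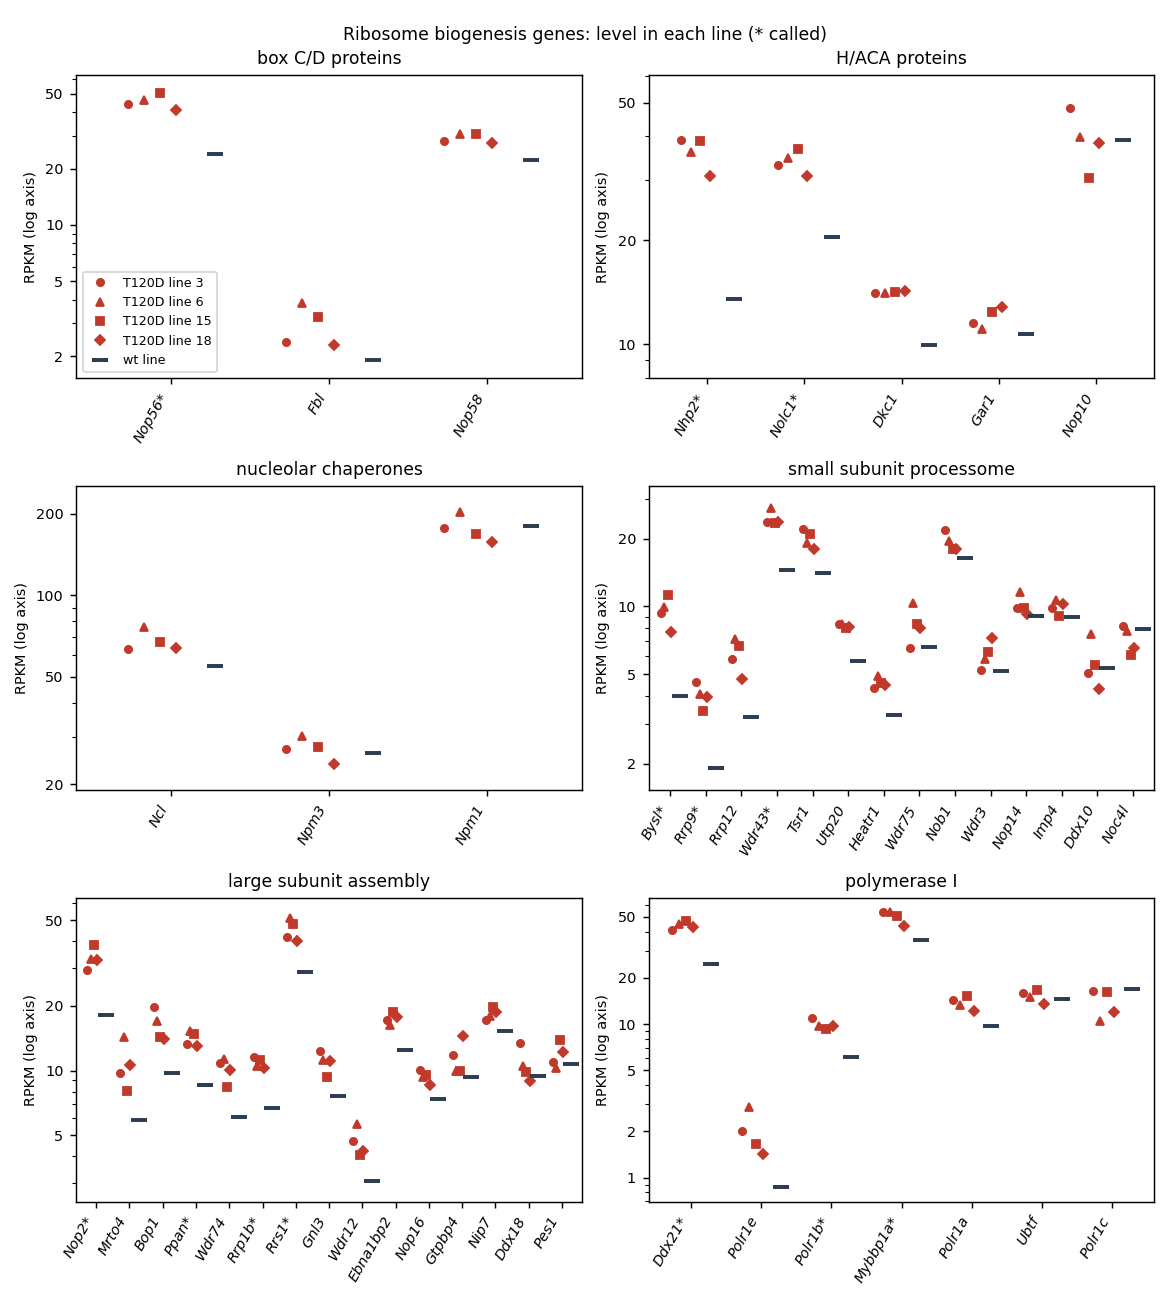
Level of each member in RPKM (log axis) in the 4 T120D lines (red, 1 symbol per line) and in the wt line (dark bar, to the right), in 6 panels by role; an asterisk marks a gene called at a limma adjusted p under 0.05. For 37 of 47 members every red symbol lies above the bar, and for Polr1c every red symbol lies below it.

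The box C/D proteins were headed by Nop56, a core scaffold protein of these particles. Its level was 44.2, 46.6, 50.7 and 41.1 RPKM in T120D lines 3, 6, 15 and 18, against 23.8 RPKM in wt. All 4 T120D lines were well above wt, by 1.92-fold on average (log2 difference 0.91, SE 0.13, limma adjusted p = 0.0031), and the call held under all 12 alternatives run. Nop58, its partner of similar sequence, was at 28.2, 30.6, 30.4 and 27.5 RPKM in T120D and at 22.1 RPKM in wt. The groups did not overlap, but the shift was smaller and was not called (0.39, 95% confidence interval 0.11 to 0.66, limma adjusted p = 0.0728). Fbl, encoding fibrillarin, the methyltransferase of the particle, was at 2.39, 3.82, 3.24 and 2.29 RPKM in T120D and at 1.90 RPKM in wt. It had the lowest level of the 3 in every line, and its interval was wide (-0.19 to 1.03). The remaining core protein is encoded by Nhp2l1, which is not one of the 48. It binds the kink-turn of these RNAs and averaged 35.7 ± 1.43 RPKM over the 4 T120D lines (SD), against 25.7 RPKM in wt (0.46, limma adjusted p = 0.0297). Its call ended without line 3 and without line 18 (limma adjusted p = 0.0668 and 0.0522) and by limma without a trend (0.0982).

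The H/ACA proteins differed among themselves. Nhp2, a core RNA-binding subunit, had the largest difference of all members, at 39.0, 36.0, 38.9 and 30.6 RPKM in T120D lines 3, 6, 15 and 18 and 13.5 RPKM in wt. The T120D lines were 2.27 to 2.89 times the wt level. The mean was 36.1 ± 3.93 RPKM (SD, n = 4), 2.67-fold higher (log2 difference 1.35, SE 0.15, limma adjusted p = 0.000874), and the call held under all 12 alternatives. Dkc1, the pseudouridine synthase, was at 14.1, 14.1, 14.2 and 14.2 RPKM in T120D and 9.94 RPKM in wt. Its spread between T120D lines, a coefficient of variation of 0.456%, was the smallest of all 10052 tested genes. That is the lowest of many values, at 5 to 5.4 reads per RPKM of a 2000-base transcript, and was not tested against counting noise. Dkc1 had a log2 difference of 0.47 and narrowly missed the call (limma adjusted p = 0.0506). It was called when genes had to average 5 RPKM, under median scaling and when no gene was filtered out (limma adjusted p = 0.0372, 0.0420 and 0.0311). Gar1, another core subunit, was at 11.5, 11.04, 12.4 and 12.8 RPKM in T120D and 10.7 RPKM in wt, with an interval of -0.19 to 0.49. Nop10, the smallest of the core proteins, was at 48.4, 39.8, 30.3 and 38.2 RPKM in T120D and 39.0 RPKM in wt, so the wt line lay inside the T120D range. Its difference of -0.01 (-0.47 to 0.45) turned to 0.01 under median scaling and to 0.10 without line 15. Nolc1, the nucleolar chaperone of these particles, was at 33.1, 34.6, 36.9 and 30.7 RPKM in T120D and 20.5 RPKM in wt (0.69, SE 0.13, limma adjusted p = 0.010).

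Members also hold snoRNA genes themselves. In the GENCODE annotation of GRCm38, 8 of the 47 members (17.02%) had at least 1 snoRNA gene inside their span on the same strand, 23 snoRNA genes in all, against 212 of 9469 tested genes (2.24%). The 8 were Nop56, Nop58, Dkc1, Ncl, Wdr43, Tsr1, Gnl3 and Ppan. Nop56 held 5 and Nop58 held 4. Of the 8, Nop56, Wdr43 and Ppan were called higher, where 13 of the 47 members and 7.65% of all tested genes were. The libraries were made for messenger RNA, and the levels of the snoRNAs were not analysed here.

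Of the 3 nucleolar chaperones, 0 were called, where 7.65% of all tested genes were called higher and 5.45% lower. At an unadjusted p under 0.05, 1 of these 3 was higher and 0 lower by limma, against 15.2% of all tested genes higher. Npm1, encoding nucleophosmin, had the highest level of all members, at 177.6, 202.3, 167.9 and 157.2 RPKM in T120D lines 3, 6, 15 and 18 and 179.5 RPKM in wt. The wt line lay among the T120D lines, and the difference was -0.03 (-0.32 to 0.26), turning to 0.02 without line 18. Its relative Npm3 was at 27.1, 30.1, 27.5 and 23.8 RPKM in T120D and 26.0 RPKM in wt, again with wt among the lines. That difference of 0.05 turned to -0.01 under quantile normalization. Ncl, encoding nucleolin, was at 63.2, 76.0, 67.4 and 63.5 RPKM in T120D and 54.8 RPKM in wt. All T120D lines were above wt, but the difference of 0.29 was not called (limma adjusted p = 0.157). The upper end of the Npm1 interval, 0.26, lay below the differences of Nop56 (0.91) and Nhp2 (1.35). With 1 wt line, the spread behind this interval comes from the T120D lines, and variation between wt lines was not measured.

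Among the 14 genes of the small subunit processome and its later steps, 3 were called higher and 0 lower, with a median log2 difference of 0.32. The share called higher was 7.65% over all tested genes. Bysl, which encodes bystin, a factor of late small-subunit maturation, was at 9.36, 9.90, 11.2 and 7.71 RPKM in T120D lines 3, 6, 15 and 18 and 4.0 RPKM in wt. The lowest T120D line was at 1.93 times the wt level, and the mean was 2.39-fold higher (log2 difference 1.07, SE 0.20, limma adjusted p = 0.0103). Rrp9, a protein of the U3 particle that is central to early cleavage, was at 4.63, 4.08, 3.42 and 3.95 RPKM in T120D and 1.91 RPKM in wt, 2.11-fold higher (limma adjusted p = 0.04465). These are low levels, and the call ended without line 3, 6 or 18 (limma adjusted p = 0.0876, 0.0650 and 0.0769) and when no gene was filtered out (0.0818). Wdr43, a subunit of the part of the processome that also acts in polymerase I transcription, was at 23.6, 27.4, 23.4 and 23.8 RPKM in T120D and 14.5 RPKM in wt (0.72, SE 0.14, limma adjusted p = 0.0101). Its call held under all alternatives, while that of Bysl ended when no gene was filtered out (limma adjusted p = 0.0592).

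The other processome members gave smaller or less even differences. Rrp12, which acts in export of the subunits, was at 5.86, 7.18, 6.70 and 4.74 RPKM in T120D and 3.23 RPKM in wt (0.74, limma adjusted p = 0.0630), and was called without line 18 (0.0378) and under quantile normalization (0.0427). Tsr1, a late maturation factor, and Utp20, a large scaffold of the processome, had T120D means of 20.03 ± 1.82 and 8.20 ± 0.144 RPKM (SD, n = 4), against 14.1 and 5.69 RPKM in wt. Neither was called (limma adjusted p = 0.0675 and 0.0876), though both had all T120D lines above wt. Heatr1 and Wdr75, which belong with Wdr43 to the same part of the processome in yeast and human, had differences of 0.37 and 0.27, and in Wdr75 the wt line (6.60 RPKM) lay just above line 3 (6.51 RPKM). Nob1, the nuclease that makes the last cut of small-subunit rRNA, was at 19.3 ± 1.82 RPKM in T120D and 16.5 RPKM in wt (0.21). Wdr3, Nop14 and Imp4, processome components, had differences of 0.21, 0.14 and 0.13, and the RNA helicase gene Ddx10 one of 0.03, which turned to -0.10 without line 6. Noc4l, whose protein pairs with that of Nop14 in yeast, was the 1 member of this group with a lower mean, at 8.15, 7.79, 6.08 and 6.52 RPKM in T120D and 7.91 RPKM in wt, with the wt line among the T120D lines.

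**Figure D2:**
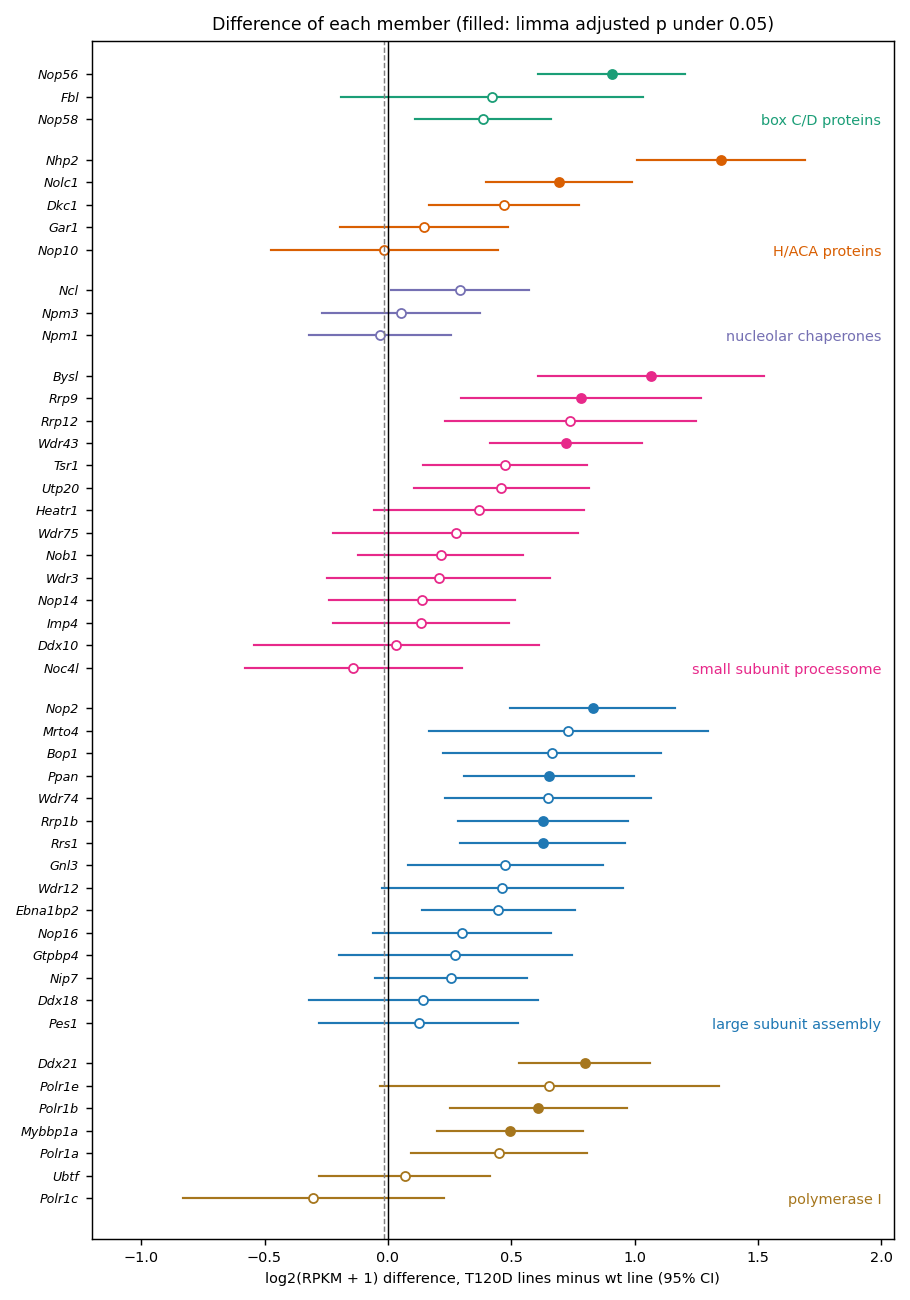
Difference of each member between the mean of the 4 T120D lines and the wt line on the log2(RPKM + 1) scale, with limma's 95% confidence interval, sorted within 6 role groups; filled circles were called and the dashed line is the median of all tested genes (-0.02). The differences run from -0.30 for Polr1c to 1.35 for Nhp2, and 22 of the 47 intervals include 0.

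Of the 15 large subunit assembly genes with values, 4 were called higher and 0 lower, where 7.65% of all tested genes were called higher. The median log2 difference was 0.48. All 15 differences were above 0, as were 4855 of 10052 over all tested genes, but for Pes1 and Ddx18 the wt line lay among the T120D lines. Nop2, an rRNA methyltransferase, was at 29.2, 33.1, 38.1 and 32.6 RPKM in T120D lines 3, 6, 15 and 18 and 18.2 RPKM in wt (log2 difference 0.83, SE 0.15, limma adjusted p = 0.00808). Ppan, the relative of a yeast assembly factor, was at 13.3, 15.2, 14.8 and 12.9 RPKM in T120D and 8.56 RPKM in wt (0.65, limma adjusted p = 0.0245). The lowest T120D line was at 1.61 times the wt level for Nop2 and 1.51 times for Ppan. Rrs1, which in yeast brings the smallest rRNA into the particle, was at 41.5, 50.8, 47.9 and 39.8 RPKM in T120D and 28.65 RPKM in wt (0.63, limma adjusted p = 0.0251). Rrp1b, a nucleolar protein also linked to transcription, was at 11.6, 10.5, 11.2 and 10.3 RPKM in T120D and 6.69 RPKM in wt (0.63, limma adjusted p = 0.0278). The call of Ppan ended without line 15 (limma adjusted p = 0.0511), and that of Rrp1b without line 3 or line 15 (0.0613 and 0.0575). When no gene was filtered out the calls of Nop2, Ppan and Rrs1 ended (limma adjusted p = 0.0521, 0.0545 and 0.0972), and by limma without a trend those of Ppan, Rrs1 and Rrp1b (0.05545, 0.08475 and 0.0507).

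The complex formed by the proteins of Pes1, Bop1 and Wdr12, needed to make large-subunit rRNA, was not called in any of its genes. Bop1 was at 19.8, 17.0, 14.3 and 13.95 RPKM in T120D lines 3, 6, 15 and 18 and 9.78 RPKM in wt (0.67, limma adjusted p = 0.0554), and was called when genes had to average 5 RPKM (0.04285). Wdr12 was at 4.73, 5.65, 4.07 and 4.22 RPKM in T120D and 3.09 RPKM in wt (0.46, limma adjusted p = 0.195). Pes1 was at 11, 10.3, 13.8 and 12.3 RPKM in T120D and 10.7 RPKM in wt, which lay among the T120D lines (0.12, interval -0.28 to 0.53). The difference was thus largest in Bop1 and smallest in Pes1, with overlapping intervals. Wdr74, an assembly factor, and Mrto4, a relative of a stalk protein, had differences of 0.65 and 0.73 (limma adjusted p = 0.0501 and 0.0897), and both were called without line 15 (0.0337 and 0.0472). For Wdr74 this was also so under 5 other settings (limma adjusted p of 0.0380 to 0.0496). Ebna1bp2, of yeast large-subunit assembly, averaged 17.45 ± 1.01 RPKM (SD, n = 4) in T120D, against 12.5 RPKM in wt (0.45, limma adjusted p = 0.0647, and 0.0497 when genes had to average 5 RPKM). Gnl3, encoding nucleostemin, a GTP-binding nucleolar protein of proliferating cells, was at 11 ± 1.24 RPKM in T120D and 7.59 RPKM in wt (0.48, limma adjusted p = 0.108). Nop16, Gtpbp4, Nip7 and Ddx18, further assembly factors, had differences of 0.30, 0.27, 0.26 and 0.14.

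Polymerase I genes were divided. Of 7 genes for its subunits and partners, 3 were called higher and 0 lower, with a median log2 difference of 0.50. The shares of all tested genes were 7.65% higher and 5.45% lower. Polr1a, the largest subunit, was at 14.3, 13.4, 15.2 and 12.2 RPKM in T120D lines 3, 6, 15 and 18 and 9.78 RPKM in wt (0.45, limma adjusted p = 0.0957). Polr1b, the next in size, was at 10.9, 9.70, 9.30 and 9.78 RPKM in T120D and 6.15 RPKM in wt (0.61, SE 0.16, limma adjusted p = 0.0367). Both catalytic subunits were above wt in every T120D line. Polr1e, which in yeast belongs to a subunit pair that helps elongation, was at 2.015, 2.885, 1.66 and 1.42 RPKM in T120D and 0.872 RPKM in wt, a level of few reads (0.65, interval -0.03 to 1.34). Polr1c, shared with polymerase III, ran the other way, at 16.4, 10.5, 16.1 and 11.9 RPKM in T120D and 16.9 RPKM in wt. Lines 3 and 15 were close to wt and lines 6 and 18 well below it, and the difference of -0.30 was not called (limma adjusted p = 0.439). The call of Polr1b ended without line 3, 15 or 18 (limma adjusted p = 0.0755, 0.0549 and 0.0645), with no trend in limma (0.0583) and when no gene was filtered out (0.05355).

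Partners of the polymerase gave both large and flat values. Ddx21, an RNA helicase of rRNA transcription and processing, was at 41.0, 45.2, 46.8 and 42.7 RPKM in T120D lines 3, 6, 15 and 18 and 24.8 RPKM in wt. All 4 lines were at 1.65 to 1.89 times the wt level (log2 difference 0.80, SE 0.12, limma adjusted p = 0.00328), and the call held under all 12 alternatives. Mybbp1a, a nucleolar protein that acts in rRNA transcription and processing, was at 53.4, 53.5, 50.4 and 43.9 RPKM in T120D and 35.3 RPKM in wt (0.50, limma adjusted p = 0.0392). Its call ended without line 3, 6 or 15 (limma adjusted p = 0.0815, 0.0525 and 0.0694), with no trend in limma (0.119), under quantile normalization (0.0608) and when no gene was filtered out (0.106). Ubtf, encoding the factor UBF that holds rRNA genes in an active state, was at 15.9, 15.0, 16.8 and 13.5 RPKM in T120D and 14.5 RPKM in wt. The wt line lay among the T120D lines, and the interval of the difference was -0.28 to 0.42.

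The median member had a coefficient of variation of 10.0% over the 4 lines, against 13.5% for the median tested gene. These are not matched for level, since the median member had 11.95 RPKM in T120D and the median tested gene 6.73 RPKM. Against wt, the median member differences of lines 3, 6, 15 and 18 were 0.47, 0.46, 0.41 and 0.35, where all tested genes had medians of -0.02 to 0.01. The number of members above wt was 43, 44, 43 and 39 of 47 in these lines. For all tested genes it was 4955, 4911, 5097 and 4903 of 10052. Every line was set against the same wt values, so these counts are not independent. Line 18 was the lowest of the 4 for 23 members (48.9%), against 26.3% of all tested genes. Line 6 was the highest for 19 (40.4%), against 25.4%. The least even members were Polr1e, Ddx10, Fbl and Mrto4, with coefficients of variation of 32.2%, 25.1%, 24.8% and 24.5%. The most even after Dkc1 was Utp20 with 1.76%. Whether these values differ from counting noise was not tested.

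**Figure D3:**
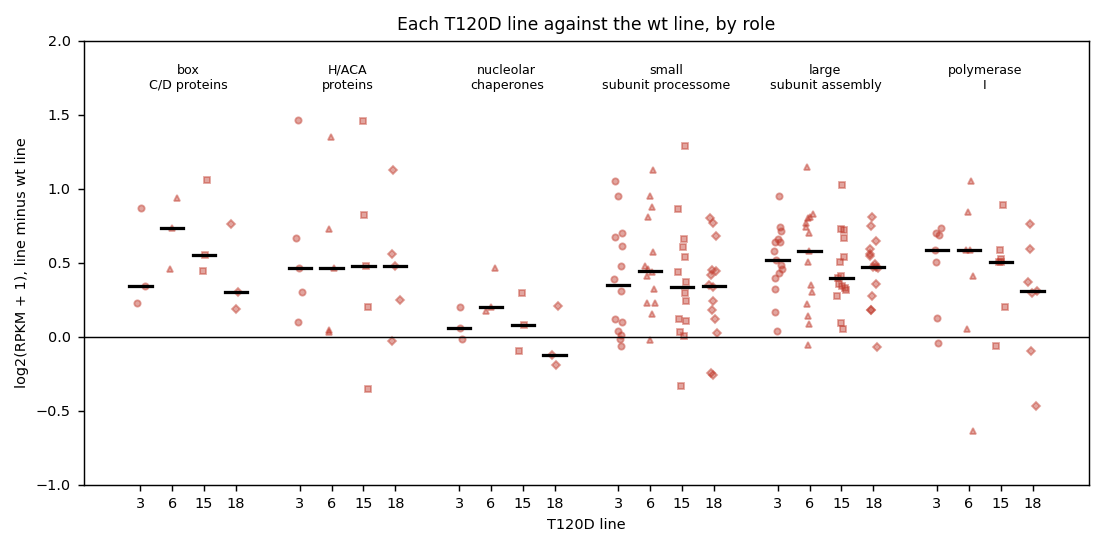
Difference of each T120D line from the wt line on the log2(RPKM + 1) scale for every member, by role and by line number; black bars are medians. The bars lie above 0 in every line for 5 of the 6 groups, while in line 18 that of the nucleolar chaperones is at -0.12.

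Some members overlap other genes. By the GENCODE annotation, exons of 21 of the 48 members overlap exons of a gene on the other strand, and the library kit keeps strand, but whether the counting used it is not given in the sources used here. The exons of Bysl overlap those of Ccnd3, encoding cyclin D3, which averaged 33.1 ± 2.27 RPKM (SD, n = 4) in T120D, against 25.01 RPKM in wt (0.39, limma adjusted p = 0.0746), the same direction as Bysl. The partner of Nhp2, Rmnd5b, was at 4.14 ± 0.608 RPKM in T120D and 5.84 RPKM in wt, and that of Rrp9, Parp3, at 7.07 ± 0.828 RPKM in T120D and 9.61 RPKM in wt. Both pointed the other way from the member and were not called. Partners of 2 members that were not called were themselves called lower. Lgals8, which overlaps Heatr1, was at 8.55 ± 0.818 RPKM in T120D and 16.3 RPKM in wt (-0.86, limma adjusted p = 0.0114). Mroh1, which overlaps Bop1, was at 2.42 ± 0.395 RPKM in T120D and 5.60 RPKM in wt (-0.96, limma adjusted p = 0.0277). The call of Mroh1 ended without line 3 or line 15 (limma adjusted p = 0.0538 and 0.0505) and when no gene was filtered out (0.0685). Idh3b, beside Nop56, was at 15.6 ± 3.05 RPKM in T120D and 14.2 RPKM in wt. Pseudogenes with the name of the member are annotated for 3 members, Npm3, Gtpbp4 and Mrto4, and reads of these may be shared. Pseudogenes under other names were not searched for, so other members may share reads too.

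Few other genes of the pathway were called. In 5 further lists with 113 genes, 110 were tested, of which 12 (10.91%) were called higher and 1 lower, with a median log2 difference of 0.25. Of the 110, 62 had wt below all 4 T120D lines and 6 had wt above all, against 31.1% and 32.3% of all tested genes. At an unadjusted p under 0.05 by limma, 33 were higher and 3 lower, against 15.2% of all tested genes higher. Over all tested genes 7.65% were called higher, and the difference between these lists and the members was not tested. The lists gave 3 higher of 31 for the small subunit, 5 of 41 for the large subunit, 1 of 12 for snoRNP assembly, 2 of 12 for polymerase I factors and 1 of 14 for the RNA exosome, which trims rRNA ends. Without line 3 the count of higher genes was 7 in place of 12.

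**Figure D4:**
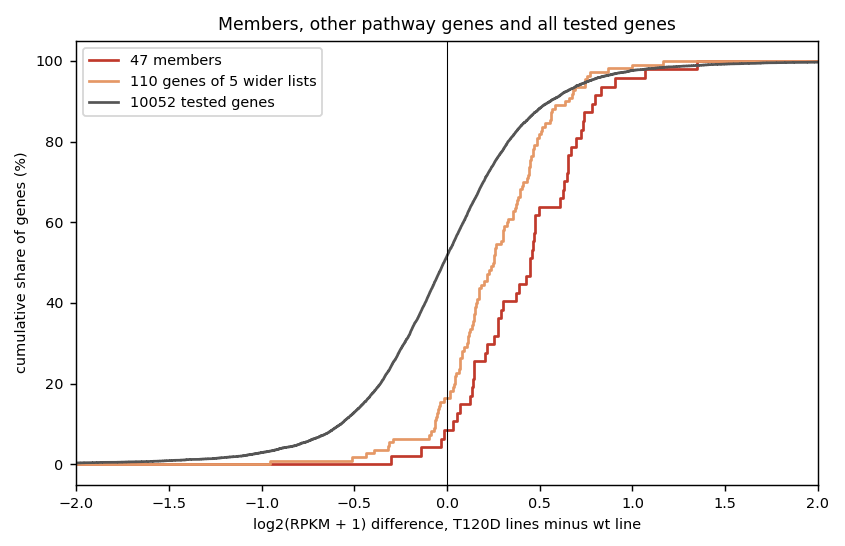
Cumulative share of genes (%) by their difference between the T120D lines and the wt line on the log2(RPKM + 1) scale, for 47 members, 110 tested genes of the 5 further lists and all 10052 tested genes. The curve of the members crosses the middle of the axis at 0.45, that of the further lists at 0.25 and that of all tested genes at -0.02.

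The genes with the largest differences in those lists were spread over the pathway. Exosc6, an exosome ring subunit, was at 19.1, 17.5, 17.8 and 15.2 RPKM in T120D lines 3, 6, 15 and 18 and 7.19 RPKM in wt, 2.42-fold higher (limma adjusted p = 0.00198). Cirh1a, encoding cirhin, a subunit of the same part of the processome as Wdr43, was at 12.3, 13.3, 15.5 and 13.8 RPKM in T120D and 6.36 RPKM in wt, 2.16-fold higher (limma adjusted p = 0.00534). Eif6, which keeps the new large subunit from joining the small one, was at 43.9, 44.5, 47.99 and 44.4 RPKM in T120D and 24.3 RPKM in wt, 1.86-fold higher (limma adjusted p = 0.00154). Their calls held under all alternatives run. Pa2g4, a nucleolar growth regulator, and Ddx56, a helicase of large-subunit assembly, had differences of 0.74 each. The call of Ddx56 ended without line 3 or line 6 (limma adjusted p = 0.0705 and 0.0567), with no trend in limma (0.0581) and when no gene was filtered out (0.0907). Tbl3 and Pno1, of the small subunit, had differences of 0.68 and 0.47, and their calls ended without line 3, 15 or 18 (limma adjusted p of 0.0834 to 0.0908 for Tbl3 and 0.0666 to 0.0905 for Pno1), and for Pno1 without line 6 (0.0557). With no trend in limma both calls ended (limma adjusted p = 0.07595 for Tbl3 and 0.0900 for Pno1), as did that of Tbl3 when no gene was filtered out (0.108) and that of Pno1 under quantile normalization (0.0538).

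Initiation factors of polymerase I moved both ways. Of the selectivity factor that brings the polymerase to rRNA promoters, Taf1d was at 15.1, 14.8, 17.4 and 15.9 RPKM in T120D lines 3, 6, 15 and 18 and 8.93 RPKM in wt, 1.77-fold higher (0.76, limma adjusted p = 0.0115). Taf1b, of the same factor, was at 1.64, 1.34, 1.68 and 2.07 RPKM in T120D and 4.18 RPKM in wt (-0.96, limma adjusted p = 0.0357). Taf1b was the 1 gene called lower in these lists, at a level of few reads, and its call ended without line 3 or line 15 (limma adjusted p = 0.0664 and 0.0590), when no gene was filtered out (0.0666) and with a pseudocount of 0.1 RPKM (0.0529). Cd3eap, a polymerase I subunit gene, was at 16.2, 16.4, 18.7 and 15.9 RPKM in T120D and 10.3 RPKM in wt (0.66, limma adjusted p = 0.0203, and 0.0529 with no trend).

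Subunits of the other polymerases were set beside them. Of 6 tested polymerase II subunits 0 were called (median log2 difference 0.07, and 1 higher and 0 lower at an unadjusted p under 0.05 by limma). Of 5 subunits shared by all 3 polymerases 0 were called (median 0.36, and 1 higher and 0 lower at an unadjusted p under 0.05 by limma). With 7.65% of all tested genes called higher and 5.45% lower, few calls would fall in lists this short. These lists were not tested against the polymerase I genes. Of 11 polymerase III subunits 1 was higher and 1 lower, with a median of 0.02. These were Polr3g and Polr3gl, 2 related genes for alternative versions of the same subunit. Polr3g, the version known from stem cells and tumour cells, was at 3.88, 4.83, 5.52 and 5.58 RPKM in T120D lines 3, 6, 15 and 18 and 2.16 RPKM in wt (0.90, limma adjusted p = 0.0305). Polr3gl was at 2.26, 2.37, 1.07 and 1.90 RPKM in T120D and 5.23 RPKM in wt (-1.13, limma adjusted p = 0.0392). The ratio of their levels was 1.72, 2.04, 5.15 and 2.95 in the T120D lines and 0.412 in wt. Both are low, the calls of both ended without line 18 (limma adjusted p = 0.0629 for Polr3g and 0.0688 for Polr3gl), that of Polr3g also without line 15 (0.05985) and that of Polr3gl without line 3 (0.0548). When no gene was filtered out both calls ended (limma adjusted p = 0.0893 for Polr3g and 0.122 for Polr3gl), and that of Polr3gl also ended with no trend in limma (0.0550) and with a pseudocount of 0.1 RPKM (0.06375). Myc itself was at 47.2, 50.4, 44.8 and 45.3 RPKM in T120D and 37.2 RPKM in wt, all T120D lines above wt and not called (0.33, limma adjusted p = 0.0916).

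**Figure D5:**
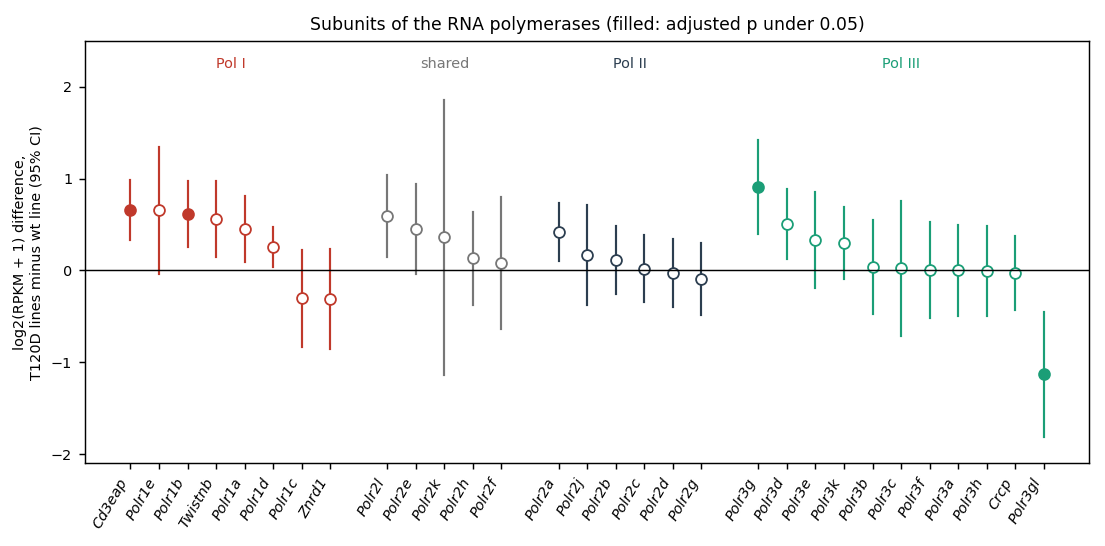
Difference between the 4 T120D lines and the wt line on the log2(RPKM + 1) scale, with 95% confidence intervals, for subunits of polymerase I (Polr1c and Polr1d are shared with polymerase III), subunits shared by all, and subunits of polymerases II and III; filled circles were called. Among polymerase I subunits Cd3eap and Polr1b were called higher, and in polymerase III Polr3g lies at 0.90 and Polr3gl at -1.13.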

How the data were processed

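Per the submitters' processing notes, Partek and mouse build mm9 were used. The authors deposited 1 table of RPKM values per line. The sources used here name no aligner or annotation and do not say whether strand was used. Depth was estimated from the steps between low values of genes with 1 RefSeq transcript. Below 20 reads, 32.8% to 38.0% of their values were whole to within 0.05 reads, where evenly spread values give 10%. The depth was chosen to bring many of these same values near whole reads, and that choice raises the share. The share is too low to turn RPKM into exact counts, so no count test of single genes was run. The chi-square between lines used reads estimated in this way.

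Values were taken as log2(RPKM + 1), a scale that understates changes of low genes. Genes averaging 1 RPKM or more across the 5 lines were fitted with limma 3.58.1 (intensity trend, two-sided, R 4.3.3). The fit had 3 residual degrees of freedom, to which the prior added 5.99. Fold values are ratios of RPKM. The members and lists were chosen with earlier results of these data known. All members could be named; in further lists, these were up to 3 called genes with the largest differences, every gene called lower, and Myc. Overlap partners were added afterwards. Annotation was GENCODE M21 and RefSeq of GRCm38, a build other than that of the values; promoters on chromosome 18 were not used. Noc2l and Taf1a were not analysed here. Alternatives changed the pseudocount, filter, trend, robustness and scaling, or left out each T120D line.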

Additional observations from a re-analysis of the deposited data

Results flagged for a closer look

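For 2 of 67 named genes, 1 T120D line lay apart from the other 3, with a gap to the nearest line larger, as a share of the range of all 4, than Dixon's 95% critical value. Chance flags about 1 in 20 groups. Wdr43 was at 27.4 RPKM in line 6 and at 23.6, 23.4 and 23.8 RPKM in lines 3, 15 and 18, against 14.5 RPKM in wt, with a gap of 0.905 of the range. Eif6 was at 47.99 RPKM in line 15 and at 43.9, 44.5 and 44.4 RPKM in lines 3, 6 and 18, against 24.3 RPKM in wt, with a gap of 0.861. In both genes the line that lay apart was farther from wt than the others, and the calls held without it.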

How the results depend on the processing

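The alternatives were pseudocounts of 0.1 and 0.5 RPKM, no filter on low values, an average of 5 RPKM or more, limma without a trend, robust limma, median scaling, quantile normalization and leaving out each T120D line. The count of members called higher was 13 and that of members called lower 0. The higher count was 7 without the filter on low values and 8 by limma without a trend, and 9 to 12 without single T120D lines, with 0 lower throughout. Of the 13 calls, 5 (Nhp2, Nop56, Ddx21, Wdr43 and Nolc1) held under all 12 settings. The median member difference of 0.45 ranged from 0.42 to 0.47 without single lines and was 0.47 under median scaling and 0.43 under quantile normalization. Over all genes, 769 were higher and 548 lower; 435 were higher without the filter on low values, 455 higher and 361 lower by limma without a trend, and 559 to 799 higher and 400 to 596 lower without single lines. In the further lists, 12 were higher and 1 lower; 6 were higher by limma without a trend and 7 to 10 without single lines. The lower count was 0 with a pseudocount of 0.1 RPKM and when genes had to average 5 RPKM, 2 under quantile normalization and 0 to 1 without single lines. The cause was not tested. Differences near 0 changed sign: Nop10 (0.0076 under median scaling, and -0.12 to 0.10 without single lines), Npm3 (-0.0055 under quantile normalization), Ddx10 (-0.10 to 0.13 without single lines), Npm1 (-0.10 to 0.0205) and Idh3b (-0.0047 to 0.19). No paired analysis was possible because the groups share no line number and wt has 1 line. At this depth genes of a few RPKM, such as Fbl, Polr1e and Taf1b, rest on few reads.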
